A study of Mus musculus with 8 samples.

Results

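The genes described here encode enzymes of de novo purine and pyrimidine synthesis, the routes by which cells build nucleotides from small precursors. They were chosen by name, as 10 members of the pathway: Ppat, Gart, Pfas, Paics, Adsl, Atic, Impdh1 and Impdh2 for purines, and Umps and Ctps for pyrimidines. Every probe that the platform annotation assigns to 1 of these symbols was taken, which gave 17 of the 25697 probes on the array and 8 of the 10 genes. Pfas and Impdh2 had no probe under their symbol or gene identifier and were not analysed here. All 17 member probes were detected on all 8 arrays and passed the detection filter, which kept 12658 probes and 8633 genes.

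Expression was measured on 8 one-colour Illumina bead arrays of vascular smooth muscle cells in primary culture, taken from carotid arteries of male mice on the C57bl6 background. In the 4 rescued samples, PMCA4 knockout cells (P4KO) had been electroporated with cDNA of PMCA4a, a splice form of the plasma membrane calcium pump PMCA4. The 4 knockout samples were P4KO cells without that cDNA. All cells of both groups therefore lack the endogenous pump, and all were serum synchronized, then given serum together with the growth factor PDGF-BB until late G1/S. No knockout sample is labelled as electroporated, so electroporation and PMCA4a cannot be told apart. Whether the 4 replicates of a group were independent cultures or mice is not labelled, and the spread behind each p-value may therefore be technical. Rescued replicate 3 stood apart in the summed intensity of adventitial fibroblast markers, 17521 against 4850 to 6238 on the other rescued arrays. The knockout arrays gave 13429 to 14741. Dcn and Dpt were far higher on rescued replicate 3 than on the other rescued arrays, whereas Mfap5 and Pcolce2 were lowest there. Member calls that turn on this array are described with single arrays left out.

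Purine synthesis starts from phosphoribosyl pyrophosphate, an activated form of ribose phosphate, and assembles the purine ring on it step by step until IMP is formed. IMP is then turned into AMP or GMP. Pyrimidine synthesis makes the ring first, joins it to the ribose phosphate to form UMP, and later aminates UTP to CTP. Cells that enter S phase draw on both routes for RNA and DNA, and in many proliferating cells the transcription factor Myc is known to raise their genes.

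Of the 17 member probes, 7 were higher and 2 were lower in rescued than in knockout cells at an adjusted p under 0.05, and 8 did not pass. Umps, which makes UMP, rose most, by 0.33 to 0.72 on the log2 scale over its 3 probes. Ppat, which opens the purine route, rose by 0.31 (1.24-fold), 1 of 3 Atic probes rose by 0.28, and 2 of 3 Impdh1 probes rose by 0.40 and 0.45. Ctps, which makes CTP, was lower at all 3 probes, and 2 of these passed. Of all 12658 kept probes 38.8% passed the threshold, 20.0% higher and 18.7% lower. The 9 member probes that passed are 52.9% of 17, and the median log2 difference of all 17 was 0.26, against 0.00359 over all kept probes. Without rescued replicate 3 the count was again 9, with 8 higher and 1 lower, beside 5056 of all 12658 kept probes.

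The sequences around the annotated start of 3 members are shown because these genes carry the largest rise (Umps), the fall (Ctps) and the rise at the end of the IMP route (Atic). Each runs from 250 bases before to 30 bases after the annotated start, 5′ to 3′ on the gene's strand, from RefSeq on build GRCm38.p6. Capitals mark a motif found by a letter search on both strands: TGACGTCA, the cAMP response element, in Umps; CGCATGCG, the core of the NRF1 motif, in Ctps; and CACGTG, the E-box bound by Myc and related factors, in Atic. Relative to the annotated start the marked matches begin at 4 (Umps), -64 (Ctps) and -7 (Atic), so that of Umps lies after the start. The Umps window is chr16:33967009-33967288 on the minus strand, that of Ctps is chr4:120570247-120570526 on the minus strand, and that of Atic is chr1:71556906-71557185 on the plus strand.
Umps: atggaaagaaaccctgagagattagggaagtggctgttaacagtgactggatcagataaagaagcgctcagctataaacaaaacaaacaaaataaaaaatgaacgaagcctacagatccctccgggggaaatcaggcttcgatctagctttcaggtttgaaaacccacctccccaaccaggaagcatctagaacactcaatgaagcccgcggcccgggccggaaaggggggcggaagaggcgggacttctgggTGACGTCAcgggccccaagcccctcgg
Ctps: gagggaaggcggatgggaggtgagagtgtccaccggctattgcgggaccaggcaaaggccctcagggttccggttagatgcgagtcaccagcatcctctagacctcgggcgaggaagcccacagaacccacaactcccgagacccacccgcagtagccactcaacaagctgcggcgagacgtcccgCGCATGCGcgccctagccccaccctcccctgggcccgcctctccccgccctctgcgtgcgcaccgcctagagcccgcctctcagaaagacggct
Atic: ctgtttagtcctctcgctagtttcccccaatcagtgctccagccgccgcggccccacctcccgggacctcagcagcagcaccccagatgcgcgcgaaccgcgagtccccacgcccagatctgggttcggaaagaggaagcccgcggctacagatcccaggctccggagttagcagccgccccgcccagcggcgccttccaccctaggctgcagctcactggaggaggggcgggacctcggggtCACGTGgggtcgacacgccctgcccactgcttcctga

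The motifs searched were chosen with these sequences in view, and a match is a description of letters only. Of 9 members with such a window, CACGTG was found in 3 (Paics, Atic and Impdh2), against 6.79% of 32851 windows of the same length. A member window was used only where its start was the gene's 5′ end in RefSeq, a limit not put on the 32851 windows. TGACGTCA was found in Umps alone of the 9, against 1.74% of all windows, and CGCATGCG in Ctps alone, against 1.78%. The E2F motif TTTCCCGC matched at 2 places in Ppat alone, against 1.01% of all windows, and its variant TTTGGCGC matched in no member window (0.469% of all). The short CCAAT box matched in 4 of the 9, Gart, Paics, Atic and Impdh2, against 36.1% of all windows. Umps and Ctps had no searched motif in common, and any link between motifs and the differences of the probes was not tested.

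Ppat, amidophosphoribosyltransferase, catalyses the committed step of purine synthesis. Its probe read log2 intensities of 8.97, 9.10, 8.94 and 9.01 on the rescued arrays, against 8.65, 8.67, 8.66 and 8.79 on the knockout arrays. Every rescued array was above every knockout array, which was also true in one direction or the other of 38.8% of all kept probes. Rescued cells averaged 9.00 ± 0.07 and knockout cells 8.69 ± 0.07 (SD, n = 4 each), with a log2 difference of 0.31 with a 95% confidence interval of 0.16 to 0.47 (limma adjusted p = 0.00546). The call held without any 1 array, with differences of 0.28 to 0.35.

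Gart, a trifunctional enzyme that carries out several early steps including one that uses a folate-bound formyl group, did not pass at either of its 2 probes. The brighter probe read 10.23, 10.38, 10.27 and 10.38 on the rescued arrays and 10.21, 10.17, 10.24 and 10.28 on the knockout arrays. The groups overlapped, and the log2 difference was 0.09 (95% interval -0.06 to 0.24, limma adjusted p = 0.299). The second probe also differed by 0.09 (-0.07 to 0.26), so a rise of the size seen at Umps lies outside both intervals.

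Paics, which carboxylates and then extends the growing ring, is the neighbour of Ppat on chromosome 5 on the opposite strand, with overlapping 5′ ends in RefSeq, and the pair is known to share a promoter region in human and chicken. Its single probe was dim and read 5.64, 5.94, 5.92 and 5.72 on the rescued arrays, against 5.33, 5.52, 5.85 and 5.54 on the knockout arrays. Knockout replicate 3 lay among the rescued arrays, and the log2 difference of 0.24 did not pass (95% interval -0.03 to 0.51, limma adjusted p = 0.140). Without knockout replicate 3 it was 0.34 and passed (adjusted p = 0.0372), and without background correction it was 0.08. The within-array log2 difference Paics minus Ppat averaged -3.20 ± 0.14 for rescued and -3.13 ± 0.22 for knockout arrays (SD, n = 4 each), a change of -0.07 (exact permutation test, two-sided, p = 0.629, where the smallest possible p is 0.0286). It ranged from -0.17 without background correction (exact p = 0.0571) and -0.15 with an offset of 50 (exact p = 0.114) to 0.03 without knockout replicate 3, and no setting reached an exact p under 0.05.

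Adsl, adenylosuccinate lyase, acts both on the way to IMP and in the conversion of IMP to AMP. It read 9.63, 9.70, 9.82 and 9.59 on the rescued arrays and 9.64, 9.44, 9.67 and 9.63 on the knockout arrays. The groups overlapped, with a log2 difference of 0.09 (95% interval -0.09 to 0.27, limma adjusted p = 0.397). Adsl lies on chromosome 15, whose 512 kept probes had a median difference of 0.21, and relative to its chromosome it differed by -0.13 without passing (adjusted p = 0.203).

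Atic, which adds the last formyl group and closes the ring to IMP, had 3 probes with nearly the same difference and unequal spread. The probe that passed, ILMN_2606564, read 8.55, 8.69, 8.46 and 8.41 on the rescued arrays, against 8.27, 8.27, 8.21 and 8.21 on the knockout arrays. Its groups did not overlap, and it rose by 0.28 on the log2 scale (95% interval 0.11 to 0.46, limma adjusted p = 0.0154). The brightest probe, ILMN_3070951, read 10.71, 10.71, 10.29 and 10.42 on the rescued arrays and 10.28, 10.24, 10.24 and 10.28 on the knockout arrays.
Its rescued replicate 3 stood only just above the knockout arrays. Its difference of 0.27 missed the threshold (adjusted p = 0.0642) and passed without that array (0.35, adjusted p = 0.0120). The third probe differed by 0.26 (adjusted p = 0.113), and by 0.35 without rescued replicate 3 (adjusted p = 0.0190). The mean of the 3 probes rose by 0.27 (adjusted p = 0.0319 over genes). Chromosome 1, where Atic lies, had a median difference of 0.08 over 619 kept probes, and centring each chromosome lowered the Atic differences to between 0.16 and 0.19 and ended the call (adjusted p = 0.0585 at ILMN_2606564).

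Impdh1, 1 of a pair of isoenzymes of IMP dehydrogenase, catalyses the rate-limiting step of guanine nucleotide synthesis, and its probes disagreed. The brightest, ILMN_1216301, read 9.50, 9.58, 9.19 and 9.49 on the rescued arrays and 9.31, 9.19, 9.45 and 9.51 on the knockout arrays. The groups overlapped widely, and the log2 difference was 0.08 (95% interval -0.16 to 0.31, limma adjusted p = 0.606). The dim probe ILMN_2680540 read 6.41, 6.61, 6.29 and 6.34 on the rescued arrays, against 5.93, 6.18, 6.03 and 5.69 on the knockout arrays, with no overlap.
That probe rose by 0.45 (95% interval 0.20 to 0.71, adjusted p = 0.0121). The other dim probe, ILMN_2680543, rose by 0.40 (adjusted p = 0.0371) with overlapping groups, and leaving out any of 6 of the 8 arrays ended its call (adjusted p up to 0.0986), as did centring each chromosome (0.29, adjusted p = 0.106). Without background correction the dim probes differed by only 0.19 and 0.21. All 3 probes are annotated to the same transcript accession, and which part of it each covers was not analysed here. The isoenzyme gene Impdh2 had no probe, so the balance of the isoenzymes could not be compared.

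Umps, the bifunctional enzyme that makes UMP from orotate, was the member with the largest rise and passed at all 3 probes. The brightest probe, ILMN_1213014, read 9.70, 9.84, 9.78 and 9.58 on the rescued arrays, against 9.15, 9.11, 9.01 and 9.07 on the knockout arrays. The groups were separated by a gap of 0.43, wider than the range of either group. Rescued cells averaged 9.72 ± 0.11 and knockout cells 9.08 ± 0.06 (SD, n = 4 each), with a log2 difference of 0.64 or 1.56-fold (95% interval 0.47 to 0.81, limma adjusted p = 0.000206).
On the deposited scale, before any normalization, the same probe had intensities of 935.6, 992, 1035.2 and 841.8 on the rescued arrays and 625.3, 672, 595.7 and 531.4 on the knockout arrays. Probe ILMN_1254813 read 7.92, 7.73, 7.43 and 7.58 on the rescued arrays and 7.04, 6.81, 6.91 and 7.03 on the knockout arrays, a rise of 0.72 (adjusted p = 0.000843). The dimmest probe, ILMN_2987878, read 6.46, 6.73, 6.61 and 6.59 on the rescued arrays and 6.42, 6.06, 6.27 and 6.31 on the knockout arrays, a rise of 0.33 (adjusted p = 0.0195).
None of the 3 probes had overlapping groups, although at the dimmest probe the gap was only 0.04. Without background correction the dimmer probes rose by 0.45 and 0.16, and the call at the dimmest was lost without rescued replicate 2 (adjusted p = 0.0513) or knockout replicate 2 (0.0502). The calls at the other probes held without any 1 array, with differences of 0.60 to 0.69 at the brightest and 0.64 to 0.80 at ILMN_1254813. Umps lies on chromosome 16, whose median difference was -0.02 over 358 kept probes, and relative to that chromosome its probes still rose, by 0.64, 0.72 and 0.33.

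Ctps, CTP synthase, aminates UTP to CTP with glutamine. The brightest probe, ILMN_2620435, read 12.59, 12.54, 12.38 and 12.51 on the rescued arrays and 12.54, 12.69, 12.67 and 12.65 on the knockout arrays, overlapping, with a difference of -0.13 that did not pass (limma adjusted p = 0.183). ILMN_2932964 read 11.33, 11.27, 11.16 and 11.27 on the rescued arrays, against 11.46, 11.47, 11.45 and 11.47 on the knockout arrays. Every rescued array was below the knockout arrays, and the probe fell by 0.21 on the log2 scale (95% interval -0.35 to -0.06, adjusted p = 0.0289).
ILMN_1219712 read 9.23, 9.29, 9.03 and 9.19 on the rescued arrays, against 9.38, 9.47, 9.35 and 9.45 on the knockout arrays. It also did not overlap and fell by 0.23 (adjusted p = 0.0400). These calls were near the threshold: leaving out 1 array ended the first in 6 of 8 cases (adjusted p up to 0.0671) and the second in 7 of 8 (up to 0.100), with differences of -0.17 to -0.26. With the arrays scaled to a common 75th percentile, ILMN_2620435 also fell, by 0.22 (adjusted p = 0.0377).

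The fall of Ctps was the same size as that of its chromosome. Chromosome 4 had 746 kept probes with a median log2 difference of -0.19, and 39.3% of them were lower in rescued cells, against 18.7% of all kept probes. Relative to that chromosome the Ctps probes differed by 0.06, -0.01 and -0.03, and none passed (adjusted p = 0.485, 0.899 and 0.759). Member probes past the threshold after centring each chromosome numbered 5, all of them higher: those of Ppat (0.27), Umps and Impdh1 ILMN_2680540 (0.34). Counting both directions, these 5 of 17 were a smaller share than that of all kept probes passing in the same setting. Counting rises alone, the member share was still the larger. DNA copy number was not measured here.

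**Figure D1:**
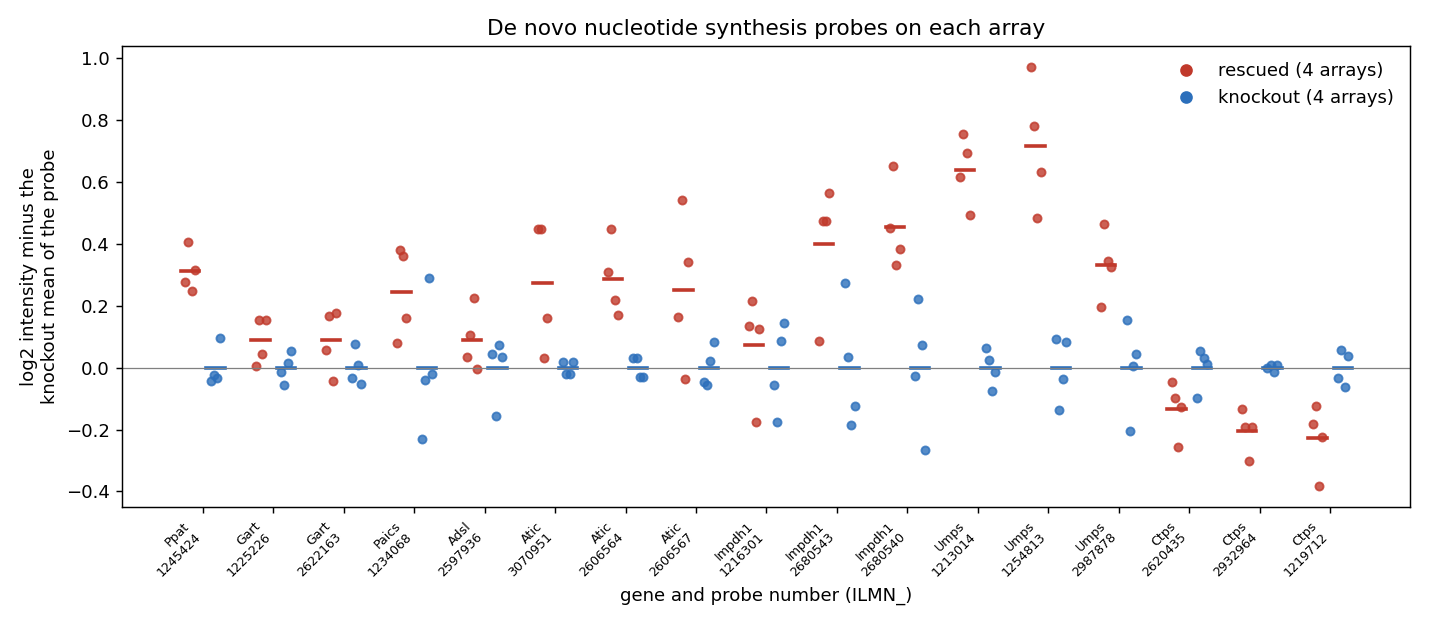
Log2 intensity of each of the 17 member probes on every array, minus the knockout mean of that probe (vertical axis, log2 units), in pathway order; each point is 1 array, horizontal bars are group means, red is rescued and blue is knockout. The Umps probes stand above the knockout mean by 0.33 to 0.72 in rescued cells, and the 3 Ctps probes lie below the knockout mean.

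**Figure D2:**
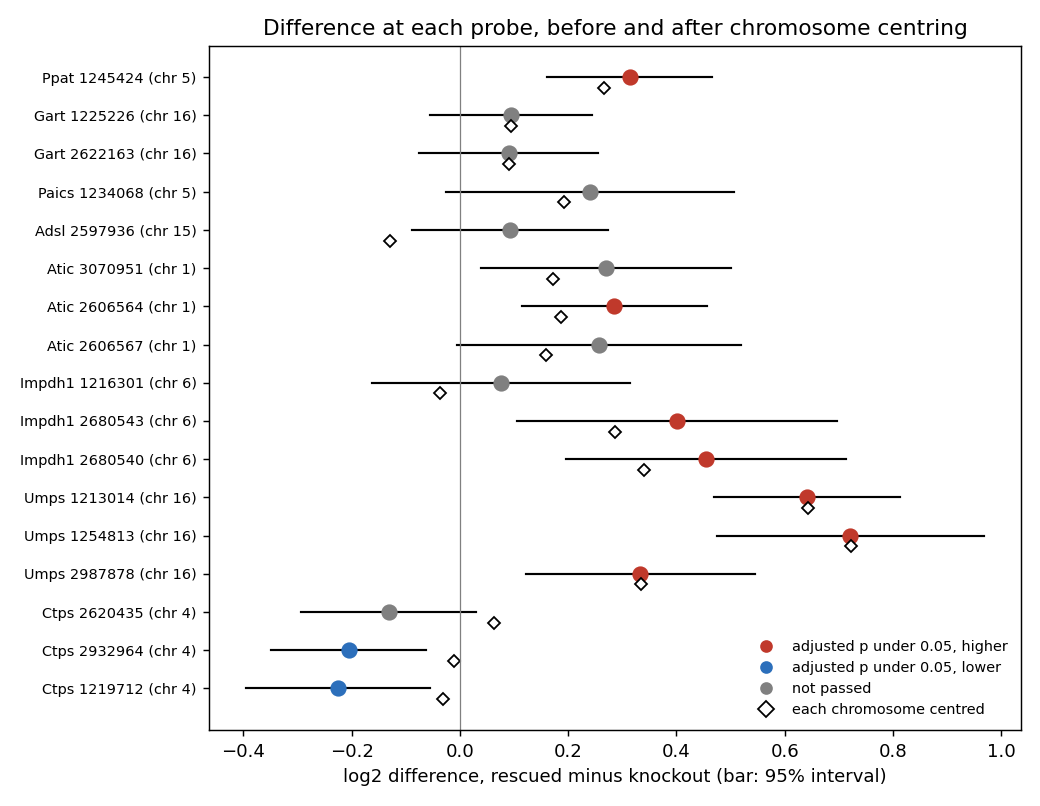
Log2 difference, rescued minus knockout, at each member probe, with its 95% confidence interval (filled points, red or blue where the adjusted p was under 0.05) and after each chromosome was centred (open diamonds). Centring leaves Umps at 0.64, 0.72 and 0.33 and moves the Ctps probes to between -0.03 and 0.06.

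**Figure D3:**
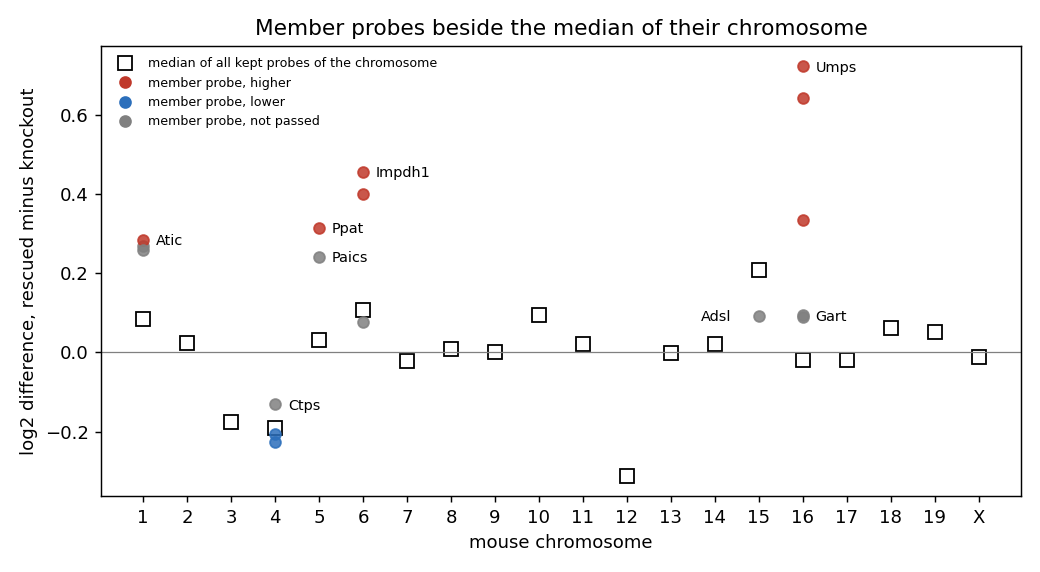
Log2 difference of the member probes (circles) at the chromosome that holds each gene, beside the median of all kept probes of every chromosome (open squares). The Ctps probes lie around the chromosome 4 median of -0.19, whereas the Umps probes lie well above the chromosome 16 median of -0.02.

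Read along the routes, the purine members up to IMP gave 2 higher probes, 0 lower and 6 short of the threshold, and their median log2 difference was 0.25. With Impdh1 added, the 11 purine probes, of 6 genes, gave 4 higher and 0 lower. The 6 pyrimidine probes, of 2 genes, gave 3 higher, all of Umps, and 2 lower, both of Ctps. Of all 12658 kept probes 20.0% were higher and 18.7% lower. Probes of 1 gene are repeated readings of it, so these counts rest on few genes. Where each gene is represented by its brightest probe, 2 of the 8 members were higher (Ppat and Umps) and 0 were lower, against 21.0% and 18.9% of 8633 genes (39.9% in either direction), and the median was 0.17 against 0.00900 over all genes. With the mean of a gene's probes instead, Umps (0.57), Ppat (0.31), Atic (0.27) and Impdh1 (0.31) were higher and Ctps (-0.19) was lower. Their limma adjusted p over genes ran from 0.000284 (Umps) to 0.0444 (Ctps), and Gart, Paics and Adsl did not pass. The share of all genes called in that setting is not given here.

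The counts of the surrounding lists below, 1 probe per gene, stand beside 21.0% higher and 18.9% lower over all 8633 genes. Of 9 other purine genes measured, 2 rose (22.2%), 2 fell (22.2%) and 5 did not pass. Adss, which makes the adenylosuccinate that Adsl splits, rose by 0.35 (8.24 ± 0.19 in rescued and 7.88 ± 0.09 in knockout arrays, SD over 4 each, limma adjusted p = 0.0202), and lost its call without knockout replicate 3 (adjusted p = 0.0583). Ak4, a mitochondrial adenylate kinase, fell by 0.95 (6.38 ± 0.17 in rescued and 7.34 ± 0.10 in knockout cells, adjusted p = 8.15e-05), and by 0.52 without background correction.
Ak3, a mitochondrial GTP:AMP phosphotransferase, rose by 0.28 (adjusted p = 0.0243), and 4 of 8 single-array omissions and the centring of chromosomes ended that call. Its other probe rose by 0.45 (adjusted p = 0.00194), and the mean of both rose by 0.36 (adjusted p = 0.00284). Prpsap2, a partner of the synthetase that makes phosphoribosyl pyrophosphate, fell by 0.39 (adjusted p = 0.0124) at a dim probe that was detected on 2 rescued and 4 knockout arrays, while its second probe differed by 0.02. Without background correction that call was lost. The synthetases themselves, Prps1 and Prps2, differed by 0.22 and -0.07 without passing.

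Of 8 other pyrimidine genes, all measured, 2 rose (25%) and 1 fell (12.5%), near the shares over all genes. Cad, the multifunctional enzyme that catalyses the opening steps of pyrimidine synthesis, read 8.35, 8.43, 7.90 and 8.11 on the rescued arrays and 8.07, 7.90, 7.93 and 7.81 on the knockout arrays. It overlapped between the groups and differed by 0.27 without passing (limma adjusted p = 0.0995). Without rescued replicate 3 it rose by 0.37 (adjusted p = 0.0163). Dhodh, the mitochondrial enzyme that makes the orotate used by Umps, differed by 0.10 (adjusted p = 0.218).
Ctps2, the X-linked isoenzyme of Ctps, read 7.70, 7.33, 8.03 and 7.71 on the rescued arrays, against 7.26, 7.10, 7.22 and 7.19 on the knockout arrays. It rose by 0.50 (adjusted p = 0.0134), and by 0.33 without background correction, so the isoenzyme genes of CTP synthase differed in opposite directions, though the fall of Ctps was not present relative to chromosome 4. The nucleoside diphosphate kinase gene Nme1 rose by 0.27 (adjusted p = 0.00715), a call that scaling to the 75th percentile ended at 0.15. Its mitochondrial relative Nme4 fell by 0.46 (adjusted p = 0.00968), with a fall at both other probes as well.

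Genes that supply one-carbon units and glycine, which the purine ring consumes, gave 7 rises (50%, against 21.0% of all genes) and 0 falls (18.9% of all genes) among 14 measured, with a median of 0.24. This list gave 5 rises and 0 falls without rescued replicate 2 or without any 1 knockout array. It gave 5 and 1 with chromosome centring or without rescued replicate 1, and 8 and 1 with array weights. Slc25a32, the mitochondrial folate carrier, rose by 0.71 (8.37 ± 0.09 in rescued and 7.66 ± 0.20 in knockout cells, limma adjusted p = 7.05e-04). The serine hydroxymethyltransferase genes Shmt1 (cytosolic) and Shmt2 (mitochondrial), which make glycine and one-carbon units from serine, rose by 0.74 and 0.49 (adjusted p = 0.00149 and 0.00164). Mthfd2, a mitochondrial folate dehydrogenase, rose by 0.27 (adjusted p = 0.00762).
Relative to their chromosomes Slc25a32, Shmt1 and Shmt2 still rose, by 0.49, 0.72 and 0.38, whereas Mthfd2 did not pass (0.16, adjusted p = 0.0785). Phgdh, the entry enzyme of serine synthesis, differed by -0.11 without passing.

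Genes of ribose 5-phosphate, glutamine and aspartate supply gave 2 rises (18.2%, against 21.0% of all genes) and 0 falls among 11 measured, with a median of -0.05. This count depended on the setting: it was 3 rises and 2 falls without background correction, with an offset of 50 or with the trend and robust variance, 2 and 3 with 75th percentile scaling, and 2 and 2 with array weights, with detection at p under 0.01 or without rescued replicate 3. Slc7a5, a large neutral amino acid transporter, rose by 0.57 (limma adjusted p = 0.00249). Asns, asparagine synthetase, rose by 0.32 (adjusted p = 0.00796) and did not pass relative to its chromosome (0.21, adjusted p = 0.0681). Of its other probes, 1 rose by 0.32 and 1 differed by -0.20, and the mean of the 3 did not pass (0.15, adjusted p = 0.270). The pentose phosphate genes Rpia and Pgls differed by -0.26 and -0.22 and just missed the threshold (adjusted p = 0.0507 and 0.0533), while relative to their chromosomes both fell, by 0.38 and 0.23 (adjusted p = 0.0106 and 0.0445).

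Salvage and nucleoside uptake, the alternative to de novo synthesis, gave 5 rises (38.5%, against 21.0% of all genes) and 2 falls (15.4%, against 18.9%) among 13 genes measured, with a median of 0.06. Slc29a1, the equilibrative nucleoside transporter of the plasma membrane, read 11.61, 11.51, 11.46 and 11.50 on the rescued arrays, against 10.65, 10.29, 10.60 and 10.52 on the knockout arrays. It rose by 1.00, more than any de novo member (limma adjusted p = 3.28e-05). Upp1, uridine phosphorylase, rose by 1.25 (adjusted p = 8.22e-04), and both of its other probes rose as well, by 1.16 and 1.12.
Tk1, the thymidine kinase of S phase, rose by 0.85 (adjusted p = 9.44e-04), and Adk, adenosine kinase, fell by 0.32 (adjusted p = 0.00451). The purine salvage enzymes Hprt and Aprt differed by 0.08 and -0.03 without passing.

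Nucleotide breakdown genes gave 4 rises (33.3%, against 21.0% of all genes) and 3 falls (25%, against 18.9%) among 12 measured, with a median of -0.10. Without rescued replicate 3, and likewise without rescued replicate 4, the list gave 3 rises and 4 falls. Xdh, xanthine dehydrogenase, which oxidises purines to urate, read 7.27, 7.24, 7.61 and 7.20 on the rescued arrays, against 9.30, 9.30, 9.27 and 9.37 on the knockout arrays. It fell by 1.98 (limma adjusted p = 7.79e-07), and rescued replicate 3 stood apart from the other rescued arrays, nearer to the knockout level. Samhd1, which degrades deoxynucleotides, fell by 0.97 (adjusted p = 9.04e-04).
Ada, adenosine deaminase, rose by 0.92 (adjusted p = 2.54e-04), and by 0.50 without background correction. Nt5c3, a pyrimidine nucleotidase, rose by 0.41 (adjusted p = 0.00188).

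The deoxynucleotide genes, which turn these products into DNA precursors, gave 5 rises (71.4%, against 21.0% of all genes) and 0 falls among 7 measured, with a median of 0.46. Tyms, thymidylate synthase, rose by 0.95 (limma adjusted p = 9.55e-05) and Rrm1, the large subunit of ribonucleotide reductase, by 0.73 (adjusted p = 4.36e-05). Dtymk and Dctd rose by 0.56 and 0.37, the groups of Dctd touching at 9.83. The small subunit gene Rrm2 differed by -0.00315 and did not pass (adjusted p = 0.989).

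In the Myc network, 3 of 9 genes measured rose and 3 fell (33.3% each, against 21.0% and 18.9% of all genes), with a median of -0.10. Without rescued replicate 3 the network gave 3 rises and 4 falls. Myc itself differed by 0.17 (95% interval -0.32 to 0.67, limma adjusted p = 0.574). Its probe was dim and was detected on only 3 rescued and 2 knockout arrays. Mycl was not detected on any knockout array, read 6.91, 7.92, 7.06 and 7.53 on the rescued arrays, and was at least 4.15-fold higher in rescued cells (adjusted p = 3.43e-05). That bound sets the rescued mean against the higher, on each knockout array, of the probe's own level and the lowest level of a detected probe, and the probe was kept through the rescued arrays alone, so it could count only as a rise. Without background correction Mycl differed by 1.03 on the log2 scale.
Mxd3, a Max partner of S phase cells, rose by 1.11 (adjusted p = 0.0011), and Atf4, an activator of serine and one-carbon genes in the amino acid response, rose by 0.58 (adjusted p = 1.97e-04). Atf4 lies on chromosome 15 and rose by 0.35 relative to it. Max, the shared partner of Myc proteins, fell by 0.40 (adjusted p = 0.00109), while its other probe differed by -0.26 without passing (adjusted p = 0.119). Max lies on chromosome 12, whose median was -0.31, and relative to that chromosome the first probe did not pass (-0.10, adjusted p = 0.362).

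**Figure D4:**
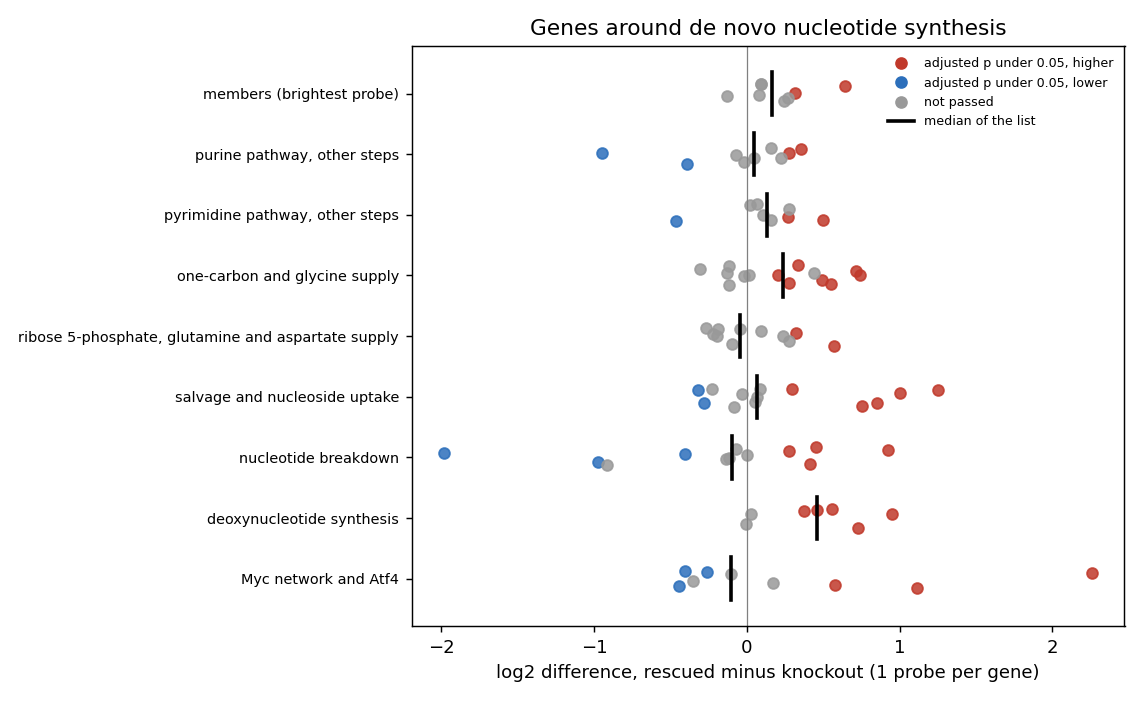
Log2 difference, rescued minus knockout, of 1 probe per gene for the members and for each surrounding list; points are genes, coloured by whether the adjusted p was under 0.05, with a little vertical scatter, and black bars are list medians. Of the lists shown, that of deoxynucleotide synthesis has the highest median at 0.46 and the one-carbon list the next at 0.24, against 0.17 for the members.

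The 5 genes whose centred profile over the 8 arrays lay closest to the members' median profile were Mdh2, Fam53a, 1810009A15Rik, Zdhhc13 and Fam89b. Their root mean square distance from it was 0.0334 to 0.0417 log2 units, and their own differences of 0.14 to 0.18 did not pass. This is a description over 8 arrays.

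Across the series, 12640 to 12873 probes were detected on the rescued arrays and 12223 to 12427 on the knockout arrays. Of 3 Atp2b4 probes, which belong to the gene of PMCA4, only ILMN_1217742 was detected, on 4 rescued and 3 knockout arrays, with a difference of 0.02 (limma adjusted p = 0.911), and whether it lies in the deleted part was not analysed here. Of 10 smooth muscle markers, Acta2 averaged 15.83 in rescued and 15.87 in knockout cells on the log2 scale, Des differed by -0.04, and Cnn1, Lmod1 and Synpo2 went undetected throughout. Myh11 was detected on too few arrays to be kept. Among the 6 kept, Actg2 and Tagln fell by 2.85 and 1.43 (adjusted p = 3.38e-06 and 1.62e-04), and Myocd and Smtn rose by 1.70 and 0.43 (adjusted p = 6.15e-04 and 0.00412), Myocd being detected on 1 knockout array. Summed background-corrected marker intensities for smooth muscle were 57477 to 62926 on rescued and 60565 to 65652 on knockout arrays. These sums rest almost wholly on Acta2: the next brightest marker, Smtn, averaged log2 10.95 in rescued and 10.52 in knockout cells. For 9 of 10 adventitial fibroblast markers, of which Lum went undetected throughout, the sums were 4850 to 17521 against 13429 to 14741. The upper end is rescued replicate 3, where Dcn read 13.35 and Dpt 12.05, against 10.15 to 11.05 and 8.97 to 10.07 on the other rescued arrays. Gsn, Pi16 and Pdgfra also read highest there among the rescued arrays (8.06, 6.94 and 9.47). Mfap5 (8.99, against 9.56 to 10.33) and Pcolce2 (9.67, against 9.68 to 10.27) read lowest there, and Cd34 (9.00) lay within the range of the others. The sums were 1940 to 3337 against 1382 to 1539 for 10 endothelial markers, of which Cdh5, Emcn and Pecam1 went undetected throughout. The sums were 484 to 536 against 261 to 355 for 8 of 10 macrophage and leukocyte markers, of which 5 (Adgre1, Cd52, Itgam, Ptprc and Tyrobp) went undetected throughout. Of the 8 fibroblast markers kept, 1 rose and 5 fell. Among 5 endothelial markers kept 4 rose and 0 fell, Vwf and Nos3 being kept through the rescued arrays alone. Among 3 leukocyte markers kept 2 rose and 1 fell. Lyz2, 1 of these rises, was detected on 4 rescued arrays and 1 knockout array. The part of these markers in the member results was not tested, and in bulk RNA fewer cells of a type and less RNA per cell cannot be told apart. Equal cycle stage of the groups was not tested either.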

How the data were processed

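The authors deposited a table of linear bead intensity values, not normalized, with a detection p-value beside each, per the file headers. They also deposited log2 values of the same probes, made by steps not given in the sources used here; these correlated with the log2 values computed here at 1.00 and differed by at most 0.0266. No slide, scan date or build is given, so batches were not examined.

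Intensities were background-corrected from the detection p-values, quantile-normalized and put on the log2 scale with an offset of 16 (neqc, limma 3.58.1, R 4.3.3). A probe was kept where its detection p was below 0.05 on 4 or more of the 8 arrays. The contrast, rescued minus knockout, came from lmFit and eBayes on all 12658 kept probes, with Benjamini-Hochberg adjustment over all of them and a threshold of 0.05. Normalization removes any shift shared by most transcripts, and the number of arrays limits the precision. In lists a gene is its brightest kept probe. The text names every member probe, and from each list up to 4 genes with the smallest p; other list genes were named after their values were seen. Members, lists and the chromosome centring (each chromosome's median subtracted per array) were chosen with earlier results of these data known. Of 25697 probes, 23978 had 1 gene symbol, 0 had several and 1719 had none; 23962 matched the RefSeq table of GRCm38.p6 by gene identifier. The fit was tested on simulated data. Alternatives were other background corrections, scalings, filters, variance models, thresholds and each array left out.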

Additional observations from a re-analysis of the deposited data

Results flagged for a closer look

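Among 100 groups of 4 arrays examined, over the member probes, the named list genes and the Paics to Ppat difference, 7 held a highest or lowest array that stood farther off than Dixon's 95% critical value allows (gap over range), and chance flags about 1 in 20. Ppat read 8.79 on knockout replicate 4, against 8.67 on the next knockout array, and this array was the nearest to the rescued level. Shmt2 read 8.70 on rescued replicate 4, against 8.97 on the next. On rescued replicate 3, Xdh read 7.61 (next 7.27), Tyms 12.23 (next 11.86) and Dctd 9.83 (next 10.13). Ada read 6.67 on knockout replicate 1, against 6.32 on the next, and Samhd1 read 10.22 on knockout replicate 3, against 10.08.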

How the results depend on the processing

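Of 323 values of the 17 member probes under the alternatives, 276 kept their side of the threshold (273 with the same sign), 38 lost the call, 9 gained it and 0 called values changed sign. The count of 9 member calls became 5 with centring each chromosome and 3 at an adjusted p under 0.01. At that threshold 3037 of all 12658 kept probes passed, against 4906 at 0.05. With the replicate number as a replicate block the member count was 5. In each of these settings the share of the 17 members passing, in either direction, was below that of all kept probes. All member calls left were higher, and the share higher was above that of all kept probes. The replicate numbers share only a number: same-numbered arrays correlated at -0.0814 to -0.00301 in their deviations, and 0 of 8 arrays correlated best with their own number. Leaving out 1 array gave 5 to 9 member calls (5 without knockout replicate 2), and 4141 to 5056 over all probes. Sign changes of members that did not pass came with centring each chromosome (Adsl -0.13, Impdh1 ILMN_1216301 -0.04, Ctps ILMN_2620435 0.06). The list calls ran from 28 to 47, against 41. The causes were not tested. Impdh2 minus Impdh1 could not be computed. Signal over background limits Paics, the dim Impdh1 and Umps probes, Myc and Mycl.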
